A study of Mus musculus with 9 samples.

Results

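The genes of MHC class I antigen presentation and of the immunoproteasome were followed in RNA of dissected mouse nigral tissue. Membership was set by a list of 10 gene symbols covering the heavy chains H2-K1 and H2-D1, the light chain B2m, the peptide transport and loading genes Tap1, Tap2 and Tapbp, the inducible proteasome subunits Psmb8, Psmb9 and Psmb10, and the class I transactivator Nlrc5. They are 10 of the 55450 genes in the files, and all 10 were among the 20892 genes that passed the filter on low counts. The study's 3 groups were compared, with 3 libraries each lettered A, B and C. In the control group (CTR), male CX3CR1-CreERT2 mice, which carry a tamoxifen-dependent Cre recombinase at the Cx3cr1 locus, received a lentiviral vector whose Cre-dependent GFP cassette is driven by the Ef1a promoter. The study's text calls this protein a destabilized GFP and the labels call it GFP. In the CX3 group, mice of the same line received the same kind of Cre-dependent vector carrying the study's transgene in place of GFP. In the DAT group, that transgene vector was given to DAT-Cre mice, in which Cre is expressed from the Slc6a3 locus of dopaminergic neurons. All groups thus share the lentiviral injection into the substantia nigra and a Cre allele, and tissue was taken 5 weeks after transduction. Age at injection is 8 weeks in the study's results, and mice were bought at 9 weeks according to its methods. Tamoxifen, 75 mg/kg on 4 days, is described for the CX3CR1-CreERT2 line only. The DAT group therefore differs from the control group in driver line, in the cell type that expresses the transgene, in tamoxifen and in the transgene. These cannot be told apart in DAT against control. The CX3 and DAT groups share the transgene, and driver line, cell type and tamoxifen cannot be told apart in CX3 against DAT. All groups also differed in markers of neighbouring tissue, such as choroid plexus, whose part was not tested. The Cx3cr1 locus is active in microglia and in other myeloid cells, so a driver there is not limited to microglia by itself.

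MHC class I molecules display peptides from inside the cell to CD8 T cells and to receptors of NK cells. Proteasomes cut cellular proteins into peptides, the TAP transporter carries the peptides into the endoplasmic reticulum, tapasin bridges TAP to the empty heavy chain, and the loaded complex of heavy chain, peptide and beta-2-microglobulin moves to the surface. Interferons raise most of these genes, and in the brain the class I genes are known to be low in resting neurons and higher in microglia, endothelial cells and infiltrating leukocytes.

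Of the 10 genes, 7 lie on chromosome 17 in the MHC region, B2m lies on chromosome 2, and Psmb10 and Nlrc5 lie on chromosome 8. In GENCODE M21 on GRCm38, the chromosome 17 genes are, in order, Tapbp (ENSMUSG00000024308.15, 33915899 to 33929292), H2-K1 (ENSMUSG00000061232.16, 33996017 to 34000347), Psmb9 (ENSMUSG00000096727.3, 34181987 to 34187764), Tap1 (ENSMUSG00000037321.17, 34187553 to 34197225), Psmb8 (ENSMUSG00000024338.15, 34197721 to 34201454), Tap2 (ENSMUSG00000024339.12, 34203527 to 34216321) and H2-D1 (ENSMUSG00000073411.11, 35262730 to 35267499). The others are B2m (ENSMUSG00000060802.8, 122147686 to 122153083), Nlrc5 (ENSMUSG00000074151.13, 94434356 to 94527272) and Psmb10 (ENSMUSG00000031897.9, 105935735 to 105938444). Psmb9 and Tap1 start next to each other on opposite strands, Psmb8 begins 496 bases beyond the end of Tap1, and Tap2 begins 2073 bases beyond the end of Psmb8. RefSeq promoter windows on GRCm38.p6, from 250 bases before to 50 bases after the start, were found for 8 of the 10 genes, and Tap2 and Nlrc5 had no entry. The windows of the heavy chains, the light chain and Tap1 are shown because these genes make up the displayed complex and its peptide supply and because the DAT libraries held less of all 4 of them. Capitals mark 5 motifs searched on both strands: the interferon regulatory factor core AANNGAAA, the gamma-activated site TTCNNNGAA, the CCAAT box, the CRE-like core TGACG, and the NF-kappaB consensus of 10 letters. The windows lie on chr17:34000298-34000597 (minus strand) for H2-K1, chr17:35262844-35263143 (plus) for H2-D1, chr2:122147437-122147736 (plus) for B2m and chr17:34187306-34187605 (plus) for Tap1.
H2-K1: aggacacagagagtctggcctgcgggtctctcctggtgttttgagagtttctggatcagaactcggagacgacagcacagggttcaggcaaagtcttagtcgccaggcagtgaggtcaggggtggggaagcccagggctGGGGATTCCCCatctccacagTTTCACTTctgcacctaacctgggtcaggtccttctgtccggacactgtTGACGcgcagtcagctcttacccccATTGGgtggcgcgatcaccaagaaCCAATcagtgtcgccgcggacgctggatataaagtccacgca
H2-D1: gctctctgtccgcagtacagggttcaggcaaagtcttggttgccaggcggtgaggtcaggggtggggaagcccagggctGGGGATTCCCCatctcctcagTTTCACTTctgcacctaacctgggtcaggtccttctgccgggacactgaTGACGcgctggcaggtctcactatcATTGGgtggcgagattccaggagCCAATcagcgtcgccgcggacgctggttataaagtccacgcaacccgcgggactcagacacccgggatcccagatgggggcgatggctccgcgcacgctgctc
B2m: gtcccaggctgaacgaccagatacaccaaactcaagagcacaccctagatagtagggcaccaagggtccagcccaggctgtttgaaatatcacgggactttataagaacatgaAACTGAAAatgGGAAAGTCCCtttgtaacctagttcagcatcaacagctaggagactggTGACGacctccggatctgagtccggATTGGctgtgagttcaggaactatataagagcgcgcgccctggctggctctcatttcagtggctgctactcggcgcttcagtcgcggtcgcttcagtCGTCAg
Tap1: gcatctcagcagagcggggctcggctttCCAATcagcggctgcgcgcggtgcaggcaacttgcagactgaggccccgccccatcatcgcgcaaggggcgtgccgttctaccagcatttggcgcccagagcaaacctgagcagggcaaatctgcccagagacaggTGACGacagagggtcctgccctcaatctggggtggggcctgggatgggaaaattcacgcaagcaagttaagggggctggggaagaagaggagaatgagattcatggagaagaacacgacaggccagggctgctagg

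The windows of H2-K1 and H2-D1 were alike, with 206 of 227 aligned bases identical, and each held an NF-kappaB match, an interferon regulatory factor match, a TGACG and a pair of CCAAT boxes in that order. The window of B2m held all 4 of these motifs as well, with the interferon regulatory factor match before the NF-kappaB match. In B2m a second TGACG match, on the other strand, lies past the start. The Tap1 window shares 275 bases with that of Psmb9, so both genes are read outward from much the same sequence, and it held a CCAAT box and a TGACG. Over all 32851 promoter windows in the table, AANNGAAA was found in 23.9%, TTCNNNGAA in 8.30%, CCAAT in 37.4%, TGACG in 20.8% and the NF-kappaB consensus in 8.46%. Among the 8 members with a window, AANNGAAA and the NF-kappaB consensus were each found in 3 (H2-K1, H2-D1 and B2m), TGACG in 5, CCAAT in 6 and TTCNNNGAA in 1, Psmb8. None of the 5 motifs was found in the window of Psmb10. A match describes letters in this window and does not show that a factor binds there, and a missing match says only that these letters are not in it.

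Each library had 21592817 to 39475428 reads counted on genes. Levels are given as CPM, counts per 1000000 counts of the TMM-scaled library, and a count of 3, taken as the floor, equals 0.0779 to 0.151 CPM, for counting error only. Libraries of the control group differed from each other by a mean squared difference of 1.45 to 1.78 times that of sampling alone, those of the CX3 group by 2.52 to 6.45 times and those of the DAT group by 2.08 to 14.6 times, with DAT library B the shallowest and farthest from the others. Libraries of different groups differed by 34.5 to 162 times. The labels do not say that the libraries came from separate mice, so the p-values measure the spread between these libraries, which may be technical. Dissected tissue was labelled substantia nigra, and the dopaminergic neuron markers Th, Slc6a3, Ddc and Slc18a2 together reached 332 to 576 CPM in the 9 libraries, with none of them at 0.

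Class I transcripts were abundant in the control tissue. Per kilobase of exon, a scale on which genes can be compared, B2m led the list in every group. Without division by length, H2-D1 led in DAT tissue, with a mean of 481.5 CPM against 401.2 for B2m. Control tissue had 1790 CPM per kb of B2m, 379 of H2-D1 and 225 of H2-K1. Psmb10 followed at 43.3 CPM per kb, and Tapbp had 19.7, Tap1 12.9, Psmb8 10.9, Psmb9 10.3 and Tap2 7.37. Nlrc5, the regulator of the group, was lowest at 5.76 CPM per kb. Psmb8 and Psmb9 are neighbours in this order whose library values overlapped. The places of Tapbp, Tap1, Psmb8 and Psmb9 also depend on the length used, since Psmb9 moves ahead of Tapbp when the longest coding transcript sets the length (27.9 against 24.6 CPM per kb). In the DAT group B2m still led with 466 CPM per kb, and Nlrc5 was again lowest with 1.21.

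Counts of both strands together leave out reads on bases shared with a gene on the opposite strand, which lowers the level of some members. The counts of the 2 separate strands added together exceeded them by 106% to 150% for Psmb8, whose exons overlap Gm20496, by 104% to 137% for Tap2 and by 29.2% to 45.8% for Tapbp. The excess was 3.18% to 14.8% for Psmb9 and 1.82% to 5.57% for Tap1, which overlap each other, at most 2.24% for Nlrc5, and at or near 0 for H2-K1, H2-D1, B2m and Psmb10. The levels of Psmb8, Tap2 and Tapbp above are therefore too low, and their differences between groups are also given by strand where that changes a call. H2-K1 and H2-D1 belong to a family of near-identical genes that can share reads, so the split of reads among the heavy chain genes is uncertain.

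**Figure D1:**
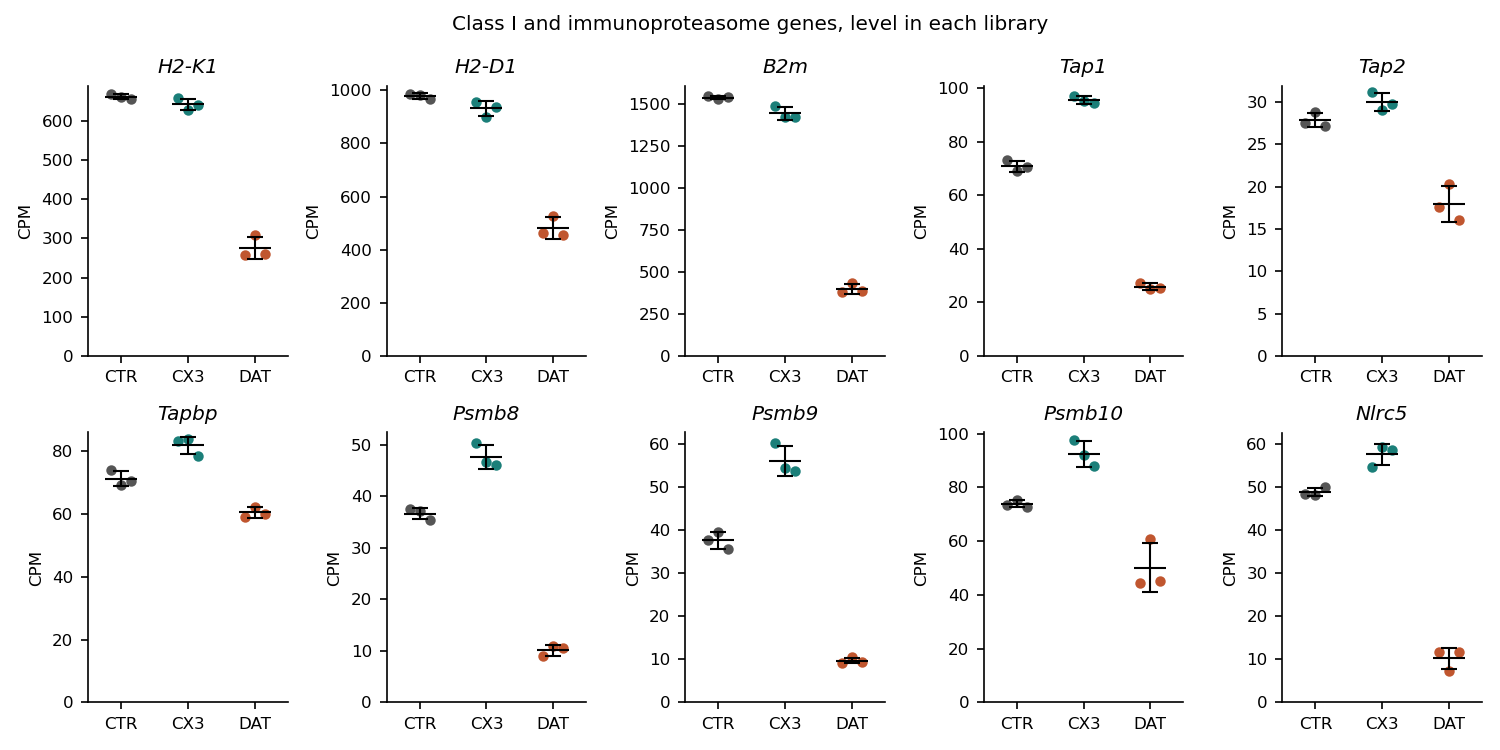
CPM of each of the 10 genes (vertical axes, from 0) in the 3 libraries of the CTR, CX3 and DAT groups (points), with the mean and SD (bars). DAT libraries lie below those of the other groups in all 10 panels, and CX3 libraries lie above the control libraries for Tap1, Tap2, Tapbp, Psmb8, Psmb9, Psmb10 and Nlrc5.

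CX3 against control compares the 2 groups of the same driver line, which by design differ in the transgene of Cx3cr1-expressing cells. Most genes for peptide supply were higher, and the displayed chains did not pass the test. Tap1, Tapbp, Psmb8, Psmb9 and Psmb10 rose in CX3 tissue by 1.15- to 1.49-fold, while H2-K1, H2-D1 and B2m had folds of 0.940 to 0.972. In total 5 of 10 members were higher at an adjusted p under 0.05 (edgeR quasi-likelihood test, Benjamini-Hochberg over all 20892 genes) and 0 were lower, where 14.0% of all genes tested were higher and 16.5% lower. At an unadjusted p under 0.05 in edgeR 6 were higher and 0 lower, and DESeq2 called 5 higher and 0 lower, while a fit of only these 2 groups called B2m lower. For 7 of 10 members the lowest CX3 library exceeded the highest control library, which held for 23.9% of all genes. The median log2 fold change of the members was 0.22, against -0.0033 over all genes, and no member reached a 2-fold difference. The tissue of these 2 groups also differed in markers of neighbouring tissue. Choroid plexus markers summed to 28.2 to 30.7 CPM in control and 1446 to 1558 in CX3 libraries, and pituitary markers to 57.5 to 60.1 and 2.97 to 3.09. Their part in the members' differences was not tested and cannot be told apart from that of the transgene.

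DAT against control asks how the members differ when the transgene vector is given to the dopaminergic neuron driver line, and every member was lower in DAT tissue. All 10 of 10 fell at an adjusted p under 0.05, where 27.9% of all genes were lower and 32.0% higher. Every DAT library lay below every control library for all 10 members, as for 30.6% of all genes. The members' median log2 fold change was -1.36, against -0.0038 over all genes, and single members ranged from -0.24 for Tapbp to -2.22 for Nlrc5.

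CX3 against DAT, the test of the difference between the 2 transgene groups, had all 10 members higher in CX3 tissue. Of all genes 27.6% were higher and 31.3% lower in this comparison, and 6 of 10 members were at least 2-fold higher against 11.0% of all genes. The libraries of the groups did not overlap for any member, as for 28.8% of all genes in this direction. The median log2 fold change of the members was 1.54, against 0.010 over all genes. These comparisons share groups, so their counts are not independent of each other. RNA of whole tissue cannot tell fewer cells of a type from less RNA per cell.

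**Figure D2:**
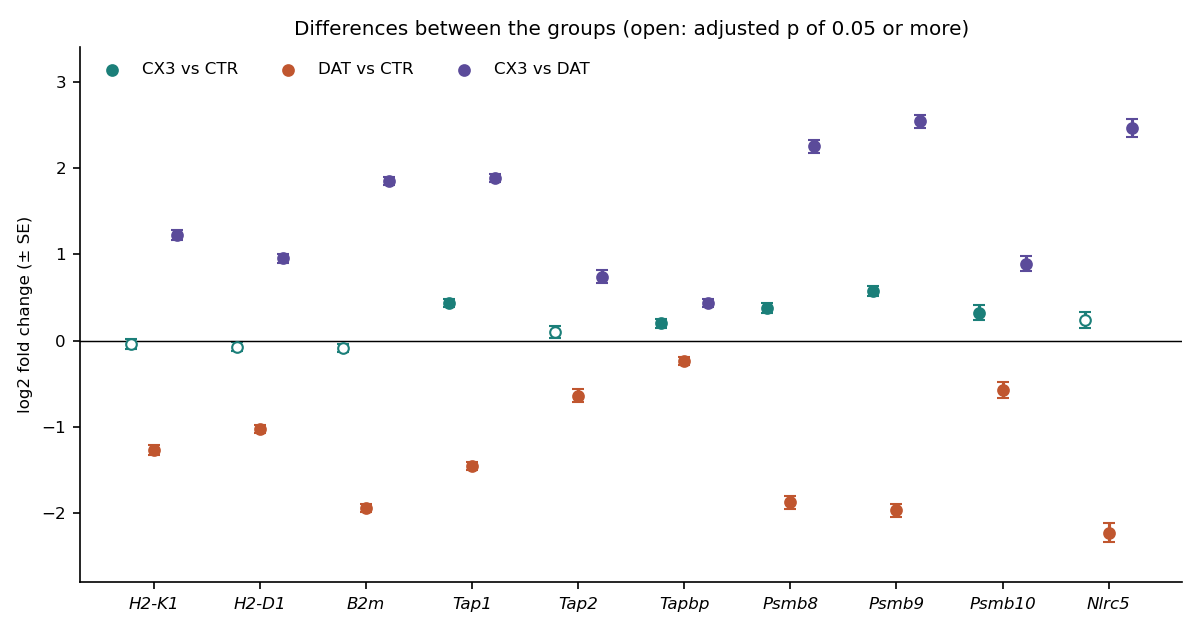
Log2 fold change (vertical axis) of each member with its standard error (bars) for CX3 against control, DAT against control and CX3 against DAT, with filled points for an adjusted p under 0.05. Changes in DAT tissue run from -0.24 to -2.22, while in CX3 tissue Psmb9 stands highest at 0.57 and H2-K1, H2-D1 and B2m lie just under 0.

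Among the displayed chains, H2-K1 encodes the heavy chain of the classical molecule H-2K. In the control libraries it had 668.0, 660.9 and 654.8 CPM, in the CX3 libraries 657.7, 628.7 and 641.2 CPM, and in the DAT libraries 258.0, 307.8 and 260.3 CPM. CX3 and control libraries overlapped, whereas all DAT libraries were far below both. The log2 fold change was -0.04 ± 0.06 (SE; adjusted p = 0.62) in CX3 and -1.26 ± 0.06 (adjusted p = 3.3e-10) in DAT against control. H2-D1, the heavy chain of H-2D, had 986.4, 982.2 and 966.6 CPM in control, 957.5, 901.2 and 936.7 in CX3, and 462.9, 527.6 and 454.1 in DAT libraries. Its CX3 libraries were all below the control libraries by a margin that did not pass the test (log2 -0.07 ± 0.05, adjusted p = 0.33), and its DAT level differed by -1.02 ± 0.05 on the log2 scale (adjusted p = 8.8e-10).

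B2m encodes beta-2-microglobulin, the light chain that every classical class I molecule needs to reach the surface. It had 1549.6, 1529.3 and 1540.4 CPM in control, 1491.8, 1425.4 and 1423.6 in CX3, and 379.7, 434.8 and 389.0 in DAT libraries. This was the widest gap of the 3 chains, with a 3.84-fold lower mean in DAT than in control tissue (log2 -1.94 ± 0.05, adjusted p = 7.6e-13). Its heavy chain partners H2-K1 and H2-D1 were 2.40- and 2.03-fold lower. In CX3 tissue the difference of B2m from control was -0.09 ± 0.05 on the log2 scale (adjusted p = 0.16), and both its sign and its call depended on the processing. It was lower when only the 2 groups were fitted (-0.084, adjusted p = 0.017), and it was 0.11 (adjusted p = 0.011) with an offset for GC content and gene length, an alternative added after seeing the data.

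Tap1 and Tap2 form the transporter that moves peptides into the endoplasmic reticulum, and the 2 partners differed in the size of their differences. Tap1 had 73.0, 69.0 and 70.4 CPM in control, 97.1, 95.1 and 94.4 in CX3, and 27.3, 24.9 and 25.2 in DAT libraries. These 9 values form 3 separate bands with narrow spread, and the log2 fold change was 0.43 ± 0.05 in CX3 (adjusted p = 1.0e-05) and -1.45 ± 0.05 in DAT against control (adjusted p = 2.8e-11). Tap2 had 27.5, 28.8 and 27.2 CPM in control, 31.1, 29.0 and 29.7 in CX3, and 17.6, 20.3 and 16.1 in DAT libraries. The CX3 values lay just above the control values and did not pass the test (log2 0.10 ± 0.07, adjusted p = 0.28), while the DAT values were 1.56-fold lower (log2 -0.64 ± 0.07, adjusted p = 3.8e-06), against 2.73-fold for Tap1. The difference between the 2 genes was not tested.

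Tapbp encodes tapasin, which holds empty class I molecules at the transporter until a peptide binds. Its levels were 74.1, 69.2 and 70.7 CPM in control, 83.1, 83.8 and 78.6 in CX3, and 59.0, 62.4 and 60.1 in DAT libraries. The groups did not overlap, but Tapbp moved least of the members that passed the test, at 0.20 ± 0.05 on the log2 scale in CX3 (adjusted p = 0.0059) and -0.24 ± 0.05 in DAT (adjusted p = 7.4e-04). The CX3 call was lost in forward-strand counts (0.12, adjusted p = 0.13) and with the offset for GC content and length (0.11, adjusted p = 0.0501). With that offset the DAT difference was -0.66 (adjusted p = 1.5e-09).

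The 3 inducible catalytic subunits replace the constitutive ones in the proteasome of interferon-exposed and immune cells and change which peptides it releases. Psmb8 (subunit beta-5i, also LMP7) had 37.6, 37.1 and 35.4 CPM in control, 50.3, 46.6 and 46.1 in CX3, and 8.94, 10.9 and 10.7 in DAT libraries. Psmb9 (beta-1i, LMP2) had 37.7, 39.7 and 35.7 CPM in control, 60.2, 54.4 and 53.9 in CX3, and 9.21, 10.5 and 9.48 in DAT libraries. For both genes every CX3 library was above and every DAT library far below the control libraries. Psmb8 differed from control by 0.38 ± 0.06 on the log2 scale in CX3 (adjusted p = 4.1e-04) and by -1.87 ± 0.07 in DAT (adjusted p = 9.2e-11). Psmb9 rose the most of all members in CX3 tissue, by 0.57 ± 0.06 (adjusted p = 8.4e-06), and differed by -1.96 ± 0.07 in DAT (adjusted p = 4.7e-11). Counts of a single strand, which hold the reads that overlap costs Psmb8, gave it 0.46 (reverse) and 0.45 (forward) in CX3 and -1.85 and -1.90 in DAT.

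Psmb10 (beta-2i, MECL-1) had 73.4, 75.3 and 72.7 CPM in control, 97.5, 91.8 and 88.0 in CX3, and 44.5, 60.6 and 45.2 in DAT libraries. The groups were separate, though DAT library B stood well above the other DAT libraries. The log2 fold change was 0.32 ± 0.09 in CX3 (adjusted p = 0.012) and -0.57 ± 0.09 in DAT (adjusted p = 9.6e-05). Without control library C the CX3 call was lost (0.31, adjusted p = 0.053), and without DAT library B the DAT difference was -0.72 (adjusted p = 5.7e-12). Psmb10 thus fell 1.48-fold in DAT tissue, against 3.66-fold for Psmb8 and 3.90-fold for Psmb9.

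The constitutive partners of these subunits, Psmb5, Psmb6 and Psmb7, gave a reference within the same particle. None of the 3 passed the test in DAT against control (0 at an unadjusted p under 0.05 in edgeR and 0 with DESeq2), where their log2 fold changes were 0.11, -0.0027 and 0.087 (adjusted p = 0.27, 0.98 and 0.28, edgeR), and in CX3 against control Psmb7 alone did (0.23, adjusted p = 0.019). Ratios of counts per kilobase within a library need no scaling between libraries. Psmb8 over Psmb5 was 0.256, 0.255 and 0.225 in control, 0.307, 0.339 and 0.339 in CX3, and 0.0599, 0.0608 and 0.0675 in DAT libraries. Psmb9 over Psmb6 was 0.173, 0.174 and 0.164 in control, 0.250, 0.254 and 0.253 in CX3, and 0.0464, 0.0410 and 0.0456 in DAT libraries. Both ratios put the groups in the same order, DAT, control, CX3, with no overlap. Psmb10 over Psmb7 was 1.92, 1.99 and 1.80 in control, 2.11, 2.08 and 1.92 in CX3, and 1.18, 1.30 and 1.14 in DAT libraries, so that CX3 and control overlapped and DAT lay below.

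In DAT tissue the mean ratio was 0.256 times that of control for Psmb8 over Psmb5, 0.260 times for Psmb9 over Psmb6 and 0.634 times for Psmb10 over Psmb7. CX3 tissue had 1.34, 1.48 and 1.07 times the control ratio, and 5.23, 5.70 and 1.69 times that of DAT tissue. Each of these 9 comparisons of 3 against 3 libraries gave p = 0.1 in an exact two-sided permutation test, the smallest p this design allows, except Psmb10 over Psmb7 in CX3 against control (p = 0.2). The absolute ratios carry the loss of reads described for Psmb8, and Psmb7 lost reads to the opposite-strand gene Nek6 in the same way, with strand counts 93.0% to 105% above.

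**Figure D3:**
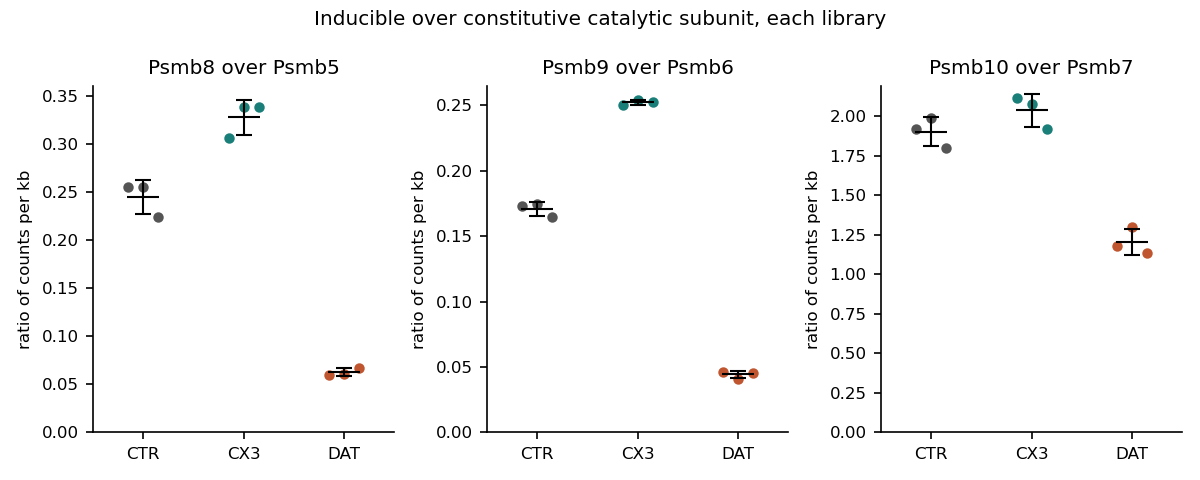
Ratio of an inducible to its constitutive catalytic subunit, as counts per kilobase of exon (vertical axes, from 0), in each library (points) with mean and SD (bars). DAT libraries lie lowest in all 3 panels, and CX3 libraries lie above the control libraries for Psmb8 over Psmb5 and Psmb9 over Psmb6 but overlap them for Psmb10 over Psmb7.

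Nlrc5 encodes the NOD-like receptor family protein that acts as transactivator of class I genes. It had 48.5, 48.1 and 50.0 CPM in control, 54.9, 59.5 and 58.7 in CX3, and 11.7, 7.39 and 11.8 in DAT libraries. All CX3 libraries were higher than control and all DAT libraries were lower, with DAT library B below its partners. The fall in DAT was the widest of the 10 members, 4.67-fold (log2 -2.22 ± 0.11, adjusted p = 5.8e-10), and was -2.06 on the log2 scale without library B. The difference in CX3 missed the threshold (0.24 ± 0.09, adjusted p = 0.058) and passed it when only the groups compared were fitted (adjusted p = 6.9e-05) and under 4 other settings.

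Between the 2 transgene groups the members spread widely. Psmb9 was 5.81-fold higher in CX3 than in DAT tissue, Nlrc5 5.50-fold and Psmb8 4.76-fold. Tap1 was 3.69-fold higher, B2m 3.61-fold and H2-K1 2.34-fold. The smallest differences were those of H2-D1 (1.94-fold), Psmb10 (1.86-fold), Tap2 (1.67-fold) and Tapbp (1.35-fold), with adjusted p of 2.6e-06 or less in edgeR for each of the 10. Psmb9, Tap1, Psmb8 and Tap2 lie side by side on chromosome 17, yet their folds here ran from 1.67 to 5.81.

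The other genes of the pathway numbered 54, of which 53 were tested and Ifnb1 was too low. In CX3 against control 12 were higher and 11 lower, with a median log2 fold change of 0.037. Of all genes 14.0% were higher and 16.5% lower there. In DAT against control 5 were higher and 34 lower, with a median of -0.39, where 32.0% of all genes were higher and 27.9% lower. In CX3 against DAT 30 were higher and 10 lower, where 27.6% of all genes were higher and 31.3% lower. The counts of single lists below have to be read against the same shares. Among 13 other class I heavy chain genes, 4 were higher and 2 lower in CX3 tissue (3 and 2 with DESeq2), and 10 were lower and 2 (H2-Q1 and H2-Q2) higher in DAT tissue. H2-T23, which encodes the nonclassical molecule Qa-1, had 178, 168 and 165 CPM in control, 280.4, 272.0 and 273.8 in CX3, and 66.2, 82.0 and 63.4 in DAT libraries. Its rise in CX3 (log2 0.69, adjusted p = 7.0e-06) was larger than that of any member, and its DAT value was -1.28 (adjusted p = 4.3e-09). H2-Q4 moved alike (0.43 in CX3 and -1.31 in DAT), H2-Q2 went the other way in both (-0.52 and 0.62), and H2-Q10 was lower in both (-1.17 and -1.11) at 11 to 48 counts per library. These genes share the uncertainty of read assignment named for H2-K1 and H2-D1.

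Of the 6 genes for peptide trimming and loading, 4 fell and 1 rose in CX3 tissue, and all 6 fell in DAT tissue. Calr, the lectin chaperone of the loading complex, had 548, 550.5 and 554 CPM in control, 324, 307 and 307 in CX3, and 433, 477 and 443 in DAT libraries. It was lower in CX3 (log2 -0.82, adjusted p = 7.7e-09) than in DAT (-0.29, adjusted p = 5.0e-05), and CX3 was below DAT in a direct test (-0.53, adjusted p = 1.4e-07). Hspa5, the general chaperone BiP, behaved likewise (-0.82 and -0.41), as did Pdia3, the disulfide isomerase that pairs with tapasin (-0.58 and -0.20). Tapbpl, a tapasin relative that edits peptides, was higher in CX3 (0.40) and lower in DAT tissue (-0.54).

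Activators and the assembly factor of the proteasome (5 genes) had 0 calls in CX3 against control in edgeR, with 1 higher at an unadjusted p under 0.05 and 1 higher with DESeq2. In DAT against control 4 were lower and 1 higher. These were named after their values were seen: Psme1 (-0.55) and Psme2 (-0.85), the subunits of the interferon-inducible PA28 cap, Psme4 (-0.26) and Pomp (-0.28) were lower, and Psme3 (0.21) was higher. Class I-like genes (4) had 1 lower in CX3 tissue, Fcgrt, the neonatal Fc receptor (-0.29, adjusted p = 0.0053 in edgeR), and 2 lower in DAT tissue.

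Among 12 transcriptional regulators, 3 were higher and 2 lower in CX3 (2 and 2 with DESeq2), and 2 were higher and 4 lower in DAT tissue. Irf1, an interferon-induced activator of class I genes, had 40.5, 41.7 and 37.6 CPM in control, 76.6, 74.1 and 69.0 in CX3, and 13.8, 15.5 and 14.0 in DAT libraries. Ciita, the transactivator of MHC class II and the closest counterpart of Nlrc5, had 6.90, 6.32 and 6.50 CPM in control, 17.5, 21.3 and 20.7 in CX3, and 2.14, 1.66 and 2.02 in DAT libraries. Both separated the groups with DAT libraries lowest and CX3 libraries highest. In CX3 tissue the log2 fold change was 0.87 for Irf1 (adjusted p = 8.3e-08) and 1.59 for Ciita (adjusted p = 1.7e-08), and in DAT tissue it was -1.47 (adjusted p = 3.4e-10) and -1.73 (adjusted p = 5.7e-08). Subunits of the general class I promoter complex differed less: Rfxank was 0.29 (adjusted p = 0.047, and 0.062 with DESeq2) and Nfya -0.31 (adjusted p = 5.6e-04) in CX3, and 0.069 (adjusted p = 0.61) and -0.28 (adjusted p = 6.3e-04) in DAT tissue.

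Of 5 tested genes for interferons and their receptors, 3 were higher and 1 lower in CX3 (2 and 1 with DESeq2), and 3 were lower in DAT tissue. Ifng, the gene of interferon gamma, was scarce, with 11, 13 and 8 counts in control, 46, 39 and 41 in CX3 and 2, 4 and 1 in DAT libraries. It rose in CX3 tissue (log2 1.76, adjusted p = 3.4e-04), and the DAT counts lie around the floor of 3 counts. Ifngr1, the ligand-binding receptor chain, was lower in both transgene groups (-0.54 in CX3 and -0.68 in DAT), while Ifngr2 (0.26) was higher in CX3 tissue. Ifnar1 was 0.17 in CX3, past the threshold in edgeR (adjusted p = 0.043) and not in DESeq2 (adjusted p = 0.076).

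Receptors that read class I on T cells, NK cells and myeloid cells (5 genes) were all lower in DAT tissue, from -1.84 to -3.00 on the log2 scale, and 1 was lower in CX3 tissue. That gene was Cd8b1, the beta chain of the CD8 coreceptor, with 6.77, 7.22 and 6.90 CPM in control, 6.15, 5.14 and 5.05 in CX3, and 1.97, 2.11 and 1.40 in DAT libraries. Its log2 fold change was -0.35 (adjusted p = 0.032) in CX3 and -1.92 (adjusted p = 4.7e-08) in DAT against control.

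**Figure D4:**
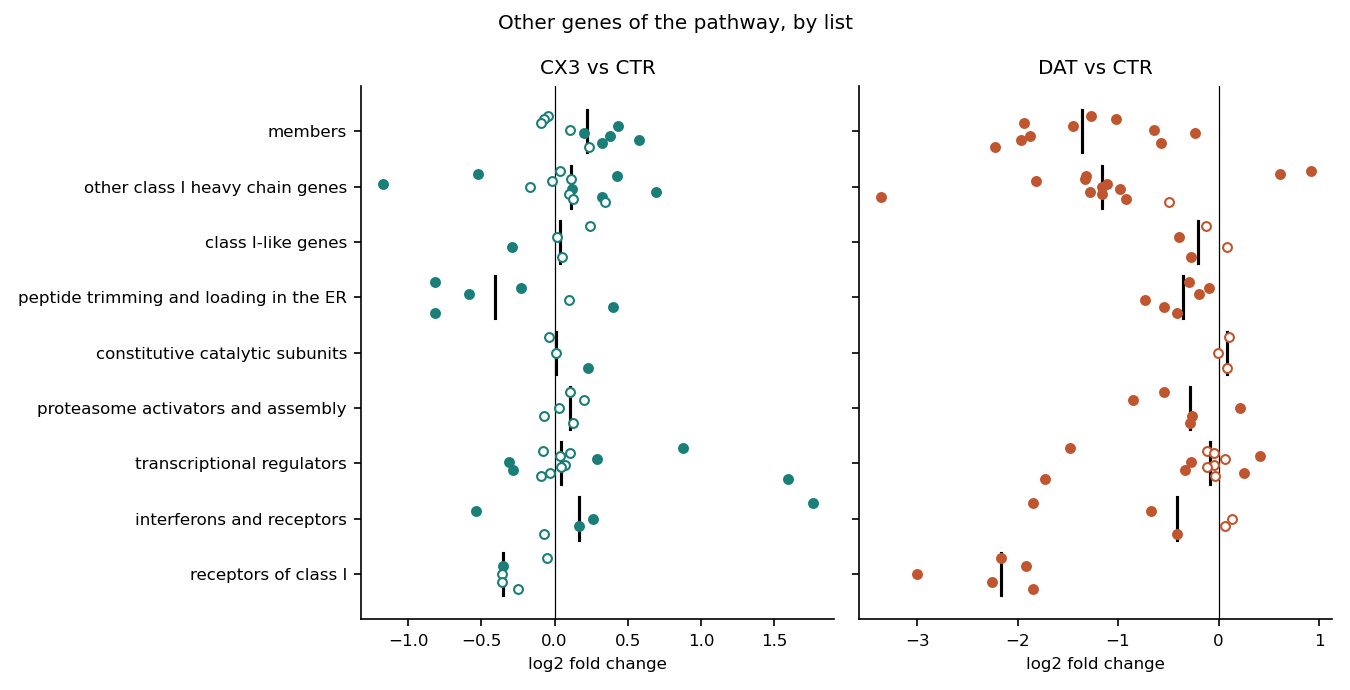
Log2 fold change (horizontal axes) of each member and of each other pathway gene by list, for CX3 against control (left) and DAT against control (right). Filled points have an adjusted p under 0.05 and black bars are list medians; receptors of class I lie at -1.84 or lower in DAT tissue, and the constitutive subunits lie between -0.04 and 0.23 in both, with Psmb7 filled in CX3 tissue.

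Markers of the cells that carry class I moved between the groups as well, and their part in the members' differences was not tested. In DAT tissue the summed level of 3 leukocyte markers was 50.3% of the control mean (75.8 to 89.5 against 162 to 164 CPM), that of 6 T cell markers was 29.4%, that of 3 NK cell markers 25.7% and that of 5 B and plasma cell markers 8.26%, with 3 of 3, 6 of 6, 1 of 1 and 5 of 5 tested genes lower. In CX3 tissue the same sums were 97.7%, 82.0%, 112% and 23.2% of control, with 1 of 3, 2 of 6, 0 of 1 and 5 of 5 lower. The NK cell sum was mostly Nkg7 (mean 6.87 CPM in control tissue). Ncr1 and Klrb1c, at 0.151 and 0.179 CPM in control, were too low to be tested. Summed microglial markers were near the same in both transgene groups. They were at 66.3% of control in CX3 (469 to 478 CPM) and 65.5% in DAT (462 to 473 CPM). Against control, 6 of 7 genes were lower in CX3 and 7 of 7 in DAT. Single genes of the list differed between the transgene groups, with 4 higher and 2 lower in CX3 against DAT. Aif1 had a mean of 30.7 CPM in CX3 and 11.5 in DAT tissue, and Cx3cr1 was lower in CX3. Cx3cr1, 1 of the 7, carries the Cre allele in the control and CX3 groups and not in the DAT group. For the control group this rests on the study's text, since its label names only GFP. The mean of Cx3cr1 was 102 CPM in control, 44.6 in CX3 and 83.4 in DAT tissue. Groups with the allele thus had both the highest and the lowest level. Border macrophage and monocyte markers summed to 63.8% of control in CX3 and 51.5% in DAT, a sum led in control tissue by the monocyte gene Ly6c2 (39.2 CPM in control, 8.70 in CX3 and 2.40 in DAT). Single genes of that list went both ways, with Mrc1 and Ccr2 higher and Lyve1 and Ly6c2 lower in CX3, and Mrc1, Cd163 and Lyve1 higher and Ccr2 and Ly6c2 lower in DAT tissue. With DESeq2 the list had 2 higher and 2 lower in each of these comparisons. No gene of these 6 lists was at 0 in all libraries of a group.

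Markers of other cells and of neighbouring tissue also differed. Endothelial markers, from cells that carry class I, were at 142% of control in CX3 and 193% in DAT tissue. All 4 genes were higher in DAT tissue. In CX3 tissue 2 were higher, Cldn5 (mean 75.1 CPM against 32.7 in control) and Flt1, while Pecam1 and Cdh5 did not pass the test. Neuronal markers were at 118% of control in CX3 and 149% in DAT tissue, and dopaminergic neuron markers at 145% and 84.1%. Oligodendrocyte markers were at 108% and 77.3%, and astrocyte markers at 53.5% and 54.8%. Of the dopaminergic genes, 3 were lower in DAT against control and Slc18a2 was higher (adjusted p = 0.032 in edgeR and 0.084 with DESeq2). Slc6a3, 1 of the 3, is the driver locus of the DAT group, with a mean of 130 CPM in control and 91.1 in DAT tissue. Choroid plexus markers (Ttr, Kl, Folr1 and Kcnj13) summed to 28.2 to 30.7 CPM in control, 1446 to 1558 in CX3 and 840 to 1009 in DAT libraries. Pituitary markers summed to 57.5 to 60.1, 2.97 to 3.09 and 15.1 to 21.0 CPM, and red blood cell markers were at 39.9% and 84.0% of control. The pituitary sum in DAT tissue was mostly Pomc, with a mean of 17.2 CPM against 17.9 in control (adjusted p = 0.59, edgeR). Gh had 0.103 CPM and Prl 0 in DAT tissue.

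**Figure D5:**
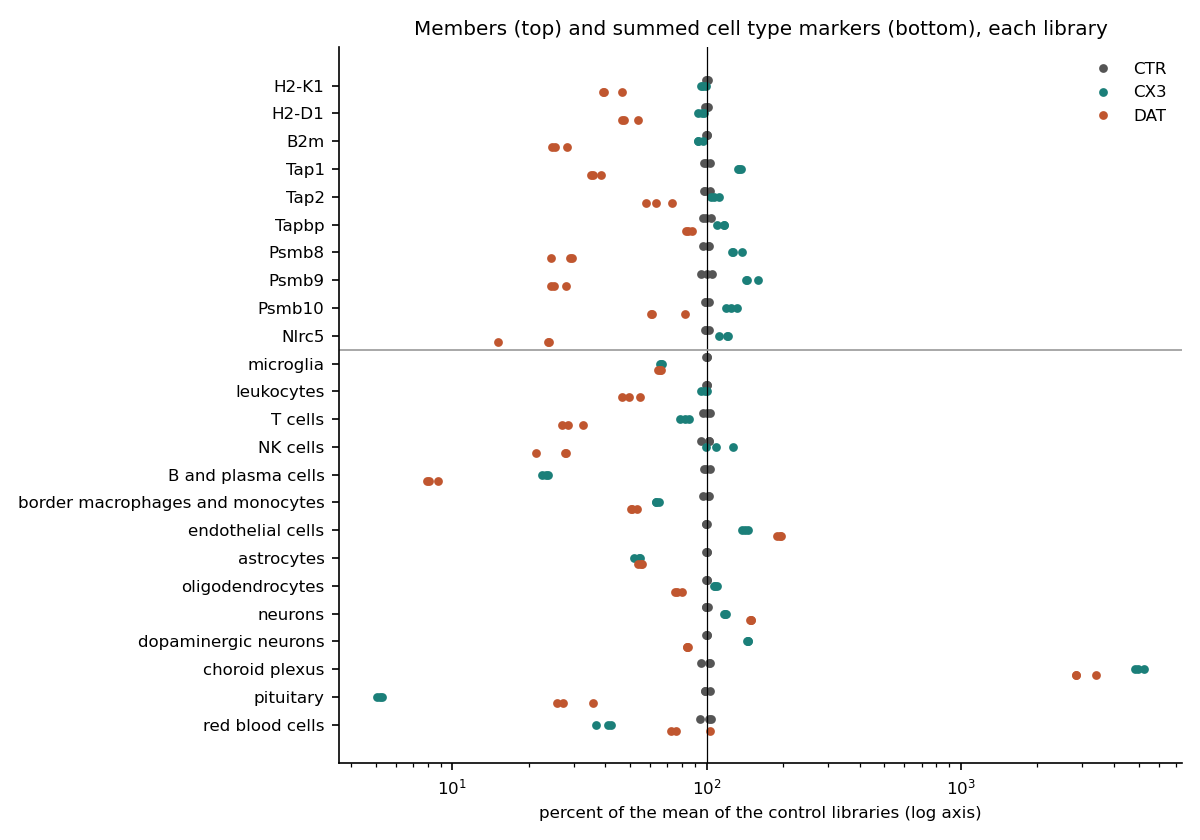
Level of each member (above the line) and summed level of each marker list (below) in every library, as a percent of the mean of the control libraries (log axis). DAT libraries lie left of the control line for all 10 members. The leukocyte, T cell, NK cell and B cell lists are lower in DAT tissue as well, while the microglial list is at 66.3% and 65.5% in CX3 and DAT.

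The direction of the members did not rest on 1 library or on the scaling in the comparisons with DAT. Leaving out each library in turn kept 10 of 10 members lower in DAT than in control and 10 of 10 higher in CX3 than in DAT. Scaling by library size alone moved the median of all genes by -0.15 on the log2 scale in DAT against control and by 0.19 in CX3 against DAT, and the calls stayed at 10 of 10 in both. For CX3 against control the count of higher members was 4 without control library C and 6 with library size alone.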

How the data were processed

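Bulk RNA sequencing covered 9 nigral libraries, 3 each for the CTR, CX3 and DAT groups, which were taken from the labels. The protein encoded by the vector of the CX3 and DAT groups is not reported here. The authors deposited raw counts of reads per gene for each library, not normalized, once with the strands combined and once per strand. The submitters' processing notes name Trimmomatic, STAR, featureCounts, DESeq2 and the build mm10, with no versions given in the sources used here, while the files look like the gene count output of STAR. The kit is described as stranded, but the reverse strand held 49.8% to 49.9% of strand-specific counts, so counts of both strands together were used. Totals of reads on no gene were left out of library sizes (unmapped 13.8% to 22.0%, several places 3.36% to 4.54%, no gene 4.15% to 7.73%, more than 1 gene 4.34% to 5.67%, each relative to all reads). All 55450 gene IDs matched GENCODE M21.

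Counts of all 9 libraries were filtered with filterByExpr, scaled by TMM and fitted with edgeR 4.0.16 in R 4.3.3 (glmQLFit and glmQLFTest, no covariate), with p adjusted by Benjamini-Hochberg over 20892 genes and a threshold of 0.05. DESeq2 gave an alternative test. The study's own test was DESeq2. Values are mean CPM ± SD of 3 libraries or the libraries themselves, and fold changes carry standard errors taken from the F statistic. Subunit ratios used counts per kilobase of merged exons and an exact permutation test. Scripts were checked on simulated counts. Promoter motifs were searched in Python 3.11.15. The members and lists were chosen with earlier results of these data known. The named genes were all 10 members, at most 4 genes of each other list with the largest difference among those past the threshold in CX3 against control, all constitutive subunits, and any named after their values were seen. Alternatives were other scalings, filters, strands, a replicate block, a fold threshold, 2-group fits, leaving out each library and, added after seeing the data, an offset for GC content and length. Single-cell libraries were not used here.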

Additional observations from a re-analysis of the deposited data

Results flagged for a closer look

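For all 10 genes the difference from control in CX3 tissue and that in DAT tissue were unlike each other, as tested by CX3 against DAT, in which the shared control libraries cancel (edgeR, adjusted p of 2.6e-06 or less for each). On the log2 scale the CX3 difference exceeded the DAT difference by 1.22 for H2-K1, 0.95 for H2-D1 and 1.85 for B2m. For the transporter and loading genes the values were 1.88 for Tap1, 0.74 for Tap2 and 0.44 for Tapbp. For the inducible subunits they were 2.25 for Psmb8, 2.54 for Psmb9 and 0.89 for Psmb10, and for Nlrc5 2.46. All 3 CX3 libraries were above all 3 DAT libraries for each gene. The groups also differ in driver line and tamoxifen, which cannot be told apart from the transgene's cell type. They differed as well in markers of neighbouring tissue, such as choroid plexus, and the part of these was not tested.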

How the results depend on the processing

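Of the members' values under the alternatives other than the fold threshold, 469 kept direction and side of the threshold, 6 newly passed it, 3 no longer passed and 2 reversed. H2-K1 in CX3 against control was 0.0055 on the log2 scale with library size alone (adjusted p = 0.95), and B2m was 0.11 with the GC and length offset. Requiring a 2-fold difference as well left 0 of 5 members in CX3 against control, 7 of 10 in DAT against control and 6 of 10 in CX3 against DAT, 3, 16 and 18 other pathway genes in CX3 against control, DAT against control and CX3 against DAT (23, 39 and 40 without it), and 750, 3321 and 3212 of all genes (6367, 12520 and 12311 without it). Psmb9 over Psmb6 was 1.40 times control in CX3 and 5.42 times DAT in reverse-strand counts, and 0.298 times control in DAT and 5.06 times DAT in CX3 in forward-strand counts. The cause was not tested. The libraries share letters across groups, and same-letter correlations of deviations ran from -0.16 to 0.040 in 9 pairs. Pairs of unlike letters reached 0.16, so no pairing by letter was seen. With 3 libraries a group, a weak pairing could be missed. With the letter as a replicate block 5, 10 and 10 members passed, as without it. Depth limits Ifng in DAT tissue, which had 1 to 4 counts.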
